A study of Mus musculus with 9 samples.

Results

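The genes described here encode MHC class I molecules and the machinery that loads them with peptide. Members were all rows of the deposited table whose symbol was H2-K1, H2-D1, H2-Q4, H2-Q6, H2-Q7, H2-T22, H2-T23, B2m, Tap1 or Tapbp. Of these 10 genes, 7 were listed among the 7197 genes of the table, and H2-Q4, H2-Q6 and H2-T23 have no value here. The set was put together with results of these data in view, in part because H2-Q7 differed between genotypes. The genotype values of its members are therefore a description and carry no test.

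The libraries came from neutrophils sorted as CD45+ CD11b+ Ly6G+ cells from the bone marrow of mice aged 2 months. Rragc+/+ mice, the controls, gave 5 libraries. RragcS74N/+ mice gave 4 and carry 1 Rragc allele edited in the germline to encode an active form of RagC, a GTPase subunit that signals nutrient sufficiency to the kinase complex mTORC1. The edit is present in every cell of these mice, so it is not limited to neutrophils. The comparison asks what constitutive nutrient signalling of this kind does to the neutrophil transcriptome.

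MHC class I molecules display peptides from inside the cell to CD8 T cells and natural killer cells. Each is a heavy chain paired with the invariant light chain beta-2-microglobulin. Peptides made by the proteasome are pumped into the endoplasmic reticulum by the transporter of Tap1 and Tap2, and tapasin, encoded by Tapbp, bridges the empty heavy chain to that transporter. In the mouse, H2-K1 and H2-D1 are classical heavy chains, whereas the H2-Q and H2-T genes are non-classical, of limited polymorphism. Interferons raise the transcription of most of these genes in many cell types.

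Reads recovered over the listed genes numbered 1214295 to 1973957 per library, and the 7 members together took 0.347% to 0.512% of them. All 13 neutrophil markers examined were listed, with Ly6g, the marker used for the sort, between 2036 and 4066 normalized counts. Of 10 markers of B cells and MHC class II, only Ighm and Igkc were listed, with a summed level of 90.0 to 146 in Rragc+/+ and 86.2 to 132 in RragcS74N/+. Cd3d was the only one of 9 T and NK cell markers listed, at 14.5 to 28.9 and 14.6 to 18.8, and none of 6 dendritic cell or 5 platelet markers was listed. Of 8 monocyte markers 3 were listed, with sums of 2215 to 3434 and 2218 to 4002. Nearly all of this was Ly6c2, with means of 2651 in Rragc+/+ and 2708 in RragcS74N/+. Csf1r had means of 177 and 102, with overlapping genotypes and a log2 difference of -0.66 (SE 0.34), and Ccl9 of 10.3 and 7.56. Eosinophil and basophil markers, 4 of 8 listed, summed to 52.5 to 136 and 59.0 to 218. Erythroid markers, 7 of 8 listed, summed to 1091 to 5609 in Rragc+/+ and 379 to 2158 in RragcS74N/+, and 5 of the 6 tested had an unadjusted limma p under 0.05, all lower in RragcS74N/+, against 5.81% of all genes tested, with 0 past the adjusted threshold. Of the 3 eosinophil and basophil markers tested, Prg2 had such a p and was higher in RragcS74N/+ (88.4 ± 71.2, SD, n = 4) than in Rragc+/+ (30.4 ± 28.2, SD, n = 5). The part of these other cells in the values below was not tested. In sorted cells profiled in bulk, fewer cells that express a gene and less RNA per cell cannot be told apart.

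All members but B2m lie in or near the MHC on chromosome 17, while B2m is on chromosome 2. The promoter sequences below are shown because H2-K1, H2-D1, H2-Q6 and H2-Q7 hold short motifs that B2m lacks, and because those of H2-Q6 and H2-Q7 are close copies of each other. They come from RefSeq for assembly GRCm38.p6 and run 5′ to 3′ on the strand of the gene, only through bases before the transcription start. Capitals mark 4 motifs that were chosen after the sequences had been seen, searched on both strands with no overlap among them: TTTCACTT, a letter pattern of interferon-response elements, GGGGATTCC, a core of kappa B elements, CCAAT, and TGACG, part of a cyclic AMP response element.
H2-K1 (chr17:34000334-34000463, minus strand): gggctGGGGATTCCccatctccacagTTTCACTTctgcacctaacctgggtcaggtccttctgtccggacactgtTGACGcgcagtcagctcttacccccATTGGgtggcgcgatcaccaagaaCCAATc
H2-D1 (chr17:35262918-35263050, plus strand): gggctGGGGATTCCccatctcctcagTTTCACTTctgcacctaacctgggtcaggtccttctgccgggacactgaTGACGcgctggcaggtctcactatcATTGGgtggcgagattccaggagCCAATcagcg
H2-Q6 (chr17:35424672-35424804, plus strand): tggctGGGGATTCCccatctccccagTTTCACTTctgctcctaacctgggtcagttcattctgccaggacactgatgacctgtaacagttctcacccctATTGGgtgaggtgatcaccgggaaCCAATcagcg
H2-Q7 (chr17:35439017-35439148, plus strand): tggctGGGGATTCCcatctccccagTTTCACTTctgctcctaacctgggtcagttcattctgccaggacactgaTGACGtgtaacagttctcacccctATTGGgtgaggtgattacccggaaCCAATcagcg
B2m (chr2:122147604-122147686, plus strand): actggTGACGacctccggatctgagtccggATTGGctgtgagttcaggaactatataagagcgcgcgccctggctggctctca

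All 10 genes had a promoter window of 300 bases in the RefSeq table. TTTCACTT or its reverse complement was found in 6 of them (H2-K1, H2-D1, H2-Q4, H2-Q6, H2-Q7 and H2-T22) and in 1.60% of the 32851 windows of all genes. GGGGATTCC was found in 4 (H2-K1, H2-D1, H2-Q6 and H2-Q7) and in 0.250% of all windows. CCAAT, present in all 10, and TGACG, present in 7, are common, in 37.4% and 20.8% of all windows. A match of letters is a description and does not show that a factor binds there.

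Some reads of a class I gene can also fit other genes. For each gene a single transcript was taken, the longest that codes for protein. Every window of 50 bases within its last 500 bases was compared with all other genes of the GENCODE M21 annotation. Reads of 3′-end sequencing come from transcript ends, but other ends of the same gene were not examined. No window of B2m, Tap1 or Tapbp occurred in another gene, and 0.444% of the H2-K1 windows did. The share was 9.53% for H2-D1, with AC132307.5, Adsl and Kcnk4 as the leading partners, 6.21% for H2-Q7, mostly with H2-Q5, and 59.2% for H2-T22, all with H2-T10. With windows of 75 bases it was 0% for H2-D1, 0.235% for H2-Q7 and 39.2% for H2-T22. The genes with no value here, H2-Q4, H2-Q6 and H2-T23, had 33.7%, 35.9% and 38.1% of their windows of 50 bases in other genes. Leading partners included Efr3a for H2-Q6, and Rab33b and H2-T-ps for H2-T23. How reads that fit several genes were counted is not given in the sources used here, so the levels of H2-T22, H2-D1 and H2-Q7 are uncertain. Only exact matches were sought, whereas the alignment allowed mismatches. H2-Q8 and H2-Q9 had no transcript under these names in the annotation and were not compared. The share found for H2-Q7 may therefore be too low, and how uncertain its level is was not settled. Tapbp overlaps Zbtb22 on the same strand. Where in Tapbp this overlap lies was not examined, so whether it affects the count is not known. The overlaps of B2m with Patl2 and of Tap1 with Psmb9 are on opposite strands, and the counting used strand.

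**Figure D1:**
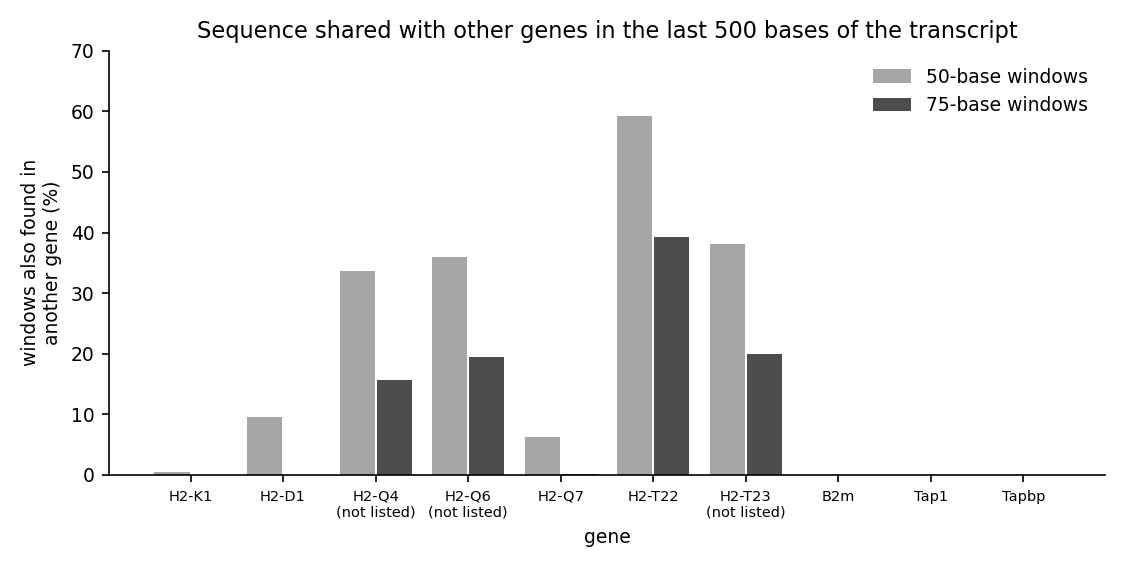
Percentage of windows of 50 (light bars) and 75 bases (dark bars) that also occur, exactly, in another gene, for the 10 genes of the set. Windows lie in the last 500 bases of the single transcript taken for each gene. H2-T22 has the highest bars, 59.2% and 39.2%, while B2m, Tap1 and Tapbp are at 0.

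The members differed widely in level. In 3′-end sequencing reads come from the ends of transcripts and do not grow in number with their length, so levels of different genes were compared without division by length. Whether PCR copies were collapsed is not known. Over the 9 libraries, B2m was the most abundant member, with a mean of 3269 normalized counts and rank 36 of the 7197 listed genes. H2-D1 followed at 1550 (rank 102), then H2-K1 at 418 (rank 546), Tapbp at 253 (rank 997), Tap1 at 164 (rank 1461), H2-T22 at 31.3 (rank 4429) and H2-Q7 at 16.8 (rank 5701).

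Neighbours in this order were compared within libraries by exact sign-flip permutation tests on log2(value + 1), two-sided, with p-values adjusted over the 6 pairs. B2m exceeded H2-D1 by 1.10 ± 0.40 (SD, n = 9) and H2-D1 exceeded H2-K1 by 1.904 ± 0.35, each in 9 of 9 libraries (exact p = 0.00391, the smallest possible, adjusted p = 0.00781). Tap1 exceeded H2-T22 by 2.41 ± 0.97, with the same exact p-values. H2-T22 exceeded H2-Q7 by 1.06 ± 0.94 in 7 of 9 libraries (exact p = 0.0156, adjusted p = 0.0234). The exceptions were RragcS74N/+ replicates 3 and 4, with 21.1 and 38.7 normalized counts for H2-T22 and 22.6 and 44.9 for H2-Q7. This pair is thus not free of the genotype difference of H2-Q7 that helped to choose the set. The order in the middle was less firm. H2-K1 exceeded Tapbp by 0.85 ± 1.13 in 8 of 9 libraries (exact p = 0.0586, adjusted p = 0.0586), and Tapbp exceeded Tap1 by 0.50 ± 0.59 in 6 of 9 (exact p = 0.0430, adjusted p = 0.0516). Neither of these pairs passed, so their order was not settled beyond the spread between libraries.

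**Figure D2:**
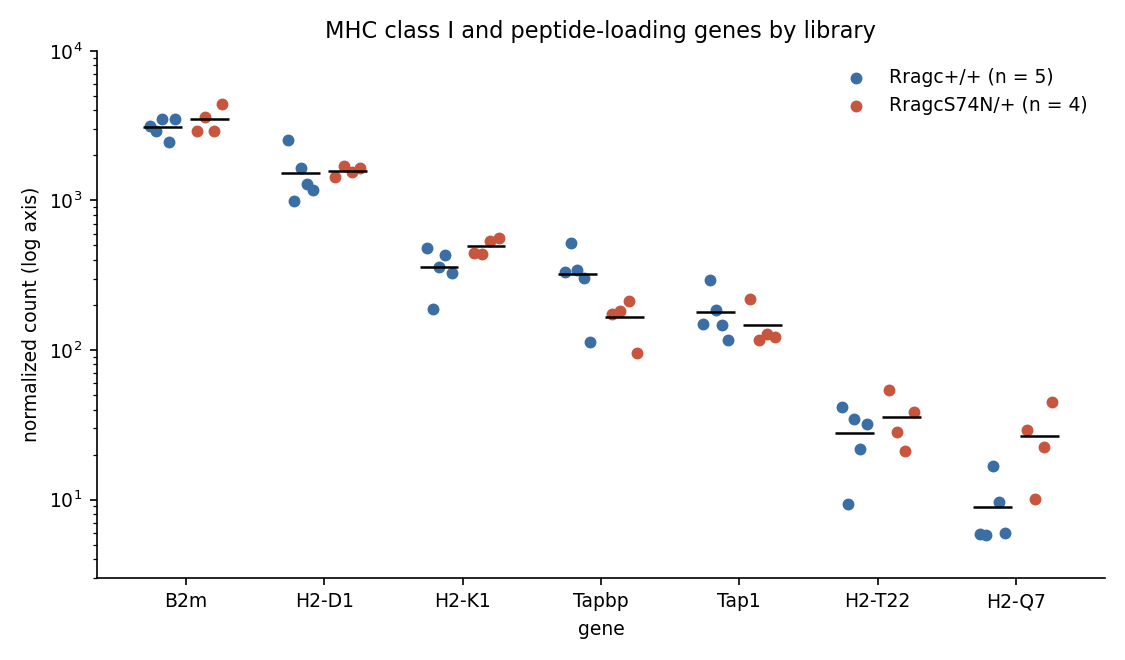
Normalized counts (log axis) of the 7 listed genes in each Rragc+/+ (blue, n = 5) and RragcS74N/+ library (red, n = 4), with black lines at the group means. Points of both genotypes overlap for every gene, and H2-Q7, the gene of lowest level, has the widest gap between means, 8.86 and 26.7.

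H2-Q7, which encodes the non-classical heavy chain Qa-2, was the member whose difference helped to choose the set. Its normalized counts in the 5 Rragc+/+ libraries were 5.93, 5.84, 16.9, 9.65 and 6.02. In the 4 RragcS74N/+ libraries they were 29.2, 10.2, 22.6 and 44.9. Rragc+/+ replicate 3 was higher than RragcS74N/+ replicate 2, so the genotypes overlapped, while the other 3 RragcS74N/+ libraries were above every control.

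These values rest on few reads, 5 to 18 per Rragc+/+ library and 10 to 44 per RragcS74N/+ library. For the pair that crossed, the 95% exact Poisson intervals were 9.999 to 26.7 for Rragc+/+ replicate 3 and 4.88 to 18.7 for RragcS74N/+ replicate 2, which cover counting error only. Means were 8.86 ± 4.76 (SD, n = 5) and 26.7 ± 14.5 (SD, n = 4), a ratio of 3.02, and the difference on the log2(value + 1) scale was 1.43 with a standard error of 0.42. This scale understates changes of low genes. Removal of each library in turn gave 1.13 to 1.81, and weighting libraries by quality gave 0.88. The Rragc+/+ mean was under the minimum of 10 used for testing, so H2-Q7 entered the fit only through the RragcS74N/+ libraries.

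H2-K1 encodes the classical heavy chain H-2K. Its normalized counts were 478, 187, 358, 428 and 328 in Rragc+/+ and 446, 441, 535 and 557 in RragcS74N/+. The lowest value by far was Rragc+/+ replicate 2, and Rragc+/+ replicate 1 exceeded 2 of the RragcS74N/+ libraries. Means were 356 ± 111 (SD, n = 5) and 495 ± 59.9 (SD, n = 4), a ratio of 1.39, with a log2 difference of 0.53 (SE 0.24). The difference was 0.32 without Rragc+/+ replicate 2 and 0.66 without Rragc+/+ replicate 1.

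H2-D1 encodes the other classical chain, H-2D, and its genotype means were nearly equal. Normalized counts were 2526, 994, 1636, 1295 and 1171 in Rragc+/+. They were 1430, 1704, 1549 and 1646 in RragcS74N/+, all inside the range of the controls. The controls spread widely, from Rragc+/+ replicate 2 at the bottom to Rragc+/+ replicate 1 at the top, and the RragcS74N/+ libraries lay close together. Means were 1524 ± 607 (SD, n = 5) and 1582 ± 120 (SD, n = 4), with a log2 difference of 0.13 (SE 0.23) that was -0.0031 without Rragc+/+ replicate 2 and 0.33 without Rragc+/+ replicate 1.

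The balance of the classical chains was also described. H2-D1 per H2-K1 averaged 4.35 ± 1.03 (SD, n = 5, range 3.02 to 5.32) in Rragc+/+ and 3.23 ± 0.44 (SD, n = 4, range 2.90 to 3.86) in RragcS74N/+, and the ranges overlapped. The sum of the 4 listed heavy chains was 1917 ± 706 (SD, n = 5) and 2139 ± 137 (SD, n = 4). Its range was 1197 to 3051 in Rragc+/+ and 1959 to 2287 in RragcS74N/+.

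H2-T22, a non-classical heavy chain known as a ligand of some gamma delta T cells, measured 41.5, 9.35, 34.7, 21.7 and 32.1 normalized counts in Rragc+/+ and 54.4, 28.5, 21.1 and 38.7 in RragcS74N/+. Rragc+/+ replicate 2 was again the lowest, and the remaining libraries of both genotypes were intermingled. Means were 27.9 ± 12.6 (SD, n = 5) and 35.6 ± 14.4 (SD, n = 4), with a log2 difference of 0.41 (SE 0.39) that was 0.082 without Rragc+/+ replicate 2.

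B2m, which encodes the light chain common to all class I molecules, had the smallest spread of the members, a within-genotype SD of 0.25 on the log2 scale against a median of 0.36 over all tested genes. Its normalized counts were 3118, 2921, 3519, 2474 and 3498 in Rragc+/+ and 2925, 3634, 2895 and 4437 in RragcS74N/+. RragcS74N/+ replicate 4 was the highest and the others were intermingled. Means were 3106 ± 435 (SD, n = 5) and 3473 ± 728 (SD, n = 4), with a log2 difference of 0.15 (SE 0.18). When the dependence of each library on the GC content of 3′ ends was removed, this difference was -0.0089. The classical chains per light chain, H2-K1 plus H2-D1 over B2m, came to 0.612 ± 0.229 (SD, n = 5) and 0.612 ± 0.0936 (SD, n = 4).

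Tapbp, the tapasin gene, was the member with the widest gap in the opposite direction. Its normalized counts were 332, 519, 344, 301 and 112 in Rragc+/+ and 174, 183, 212 and 96.1 in RragcS74N/+. The first 4 controls were above every RragcS74N/+ library, whereas Rragc+/+ replicate 5 was below 3 of them. Means were 322 ± 145 (SD, n = 5) and 166 ± 49.6 (SD, n = 4), a ratio of 1.93 in favour of Rragc+/+, with a log2 difference of -0.85 (SE 0.36). Removal of each library in turn gave -1.19, without Rragc+/+ replicate 5, to -0.61, without RragcS74N/+ replicate 4.

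Tap1, which encodes a subunit of the peptide transporter, measured 149, 292, 185, 147 and 117 normalized counts in Rragc+/+ and 221, 116, 128 and 121 in RragcS74N/+. A single library stood above the others in each genotype, replicate 2 of Rragc+/+ and replicate 1 of RragcS74N/+. Means were 178 ± 68.0 (SD, n = 5) and 146 ± 49.8 (SD, n = 4), with a log2 difference of -0.26 (SE 0.26) that was -0.065 without Rragc+/+ replicate 2 and -0.47 without RragcS74N/+ replicate 1. Tapbp per Tap1 averaged 1.77 ± 0.487 (SD, n = 5) in Rragc+/+ neutrophils and 1.21 ± 0.479 (SD, n = 4) in those of RragcS74N/+ mice, with overlapping ranges.

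Read together, 5 members were higher and 2 lower in RragcS74N/+, with a median log2 difference of 0.15 against 0.024 over all 6673 genes tested, of which 53.4% were higher. In limma, 0 of 7 members passed an adjusted p of 0.05, as did 0 of all genes tested (0%), the smallest adjusted p in the fit being 0.713. At an unadjusted p under 0.05, 3 of 7 members were called, H2-Q7 and H2-K1 higher and Tapbp lower, where 5.81% of all genes were. The genotypes were free of overlap for 0 of 7 members and for 1.69% of all genes. edgeR on the recovered reads called 2 of 7 members at the unadjusted threshold, H2-Q7 and Tapbp, against 6.89% of all genes, and DESeq2 called the same pair against 6.7%. Both called 0 members and 0% of genes at an adjusted p of 0.05. Since the set was chosen in part on this contrast, nothing was read from these counts.

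**Figure D3:**
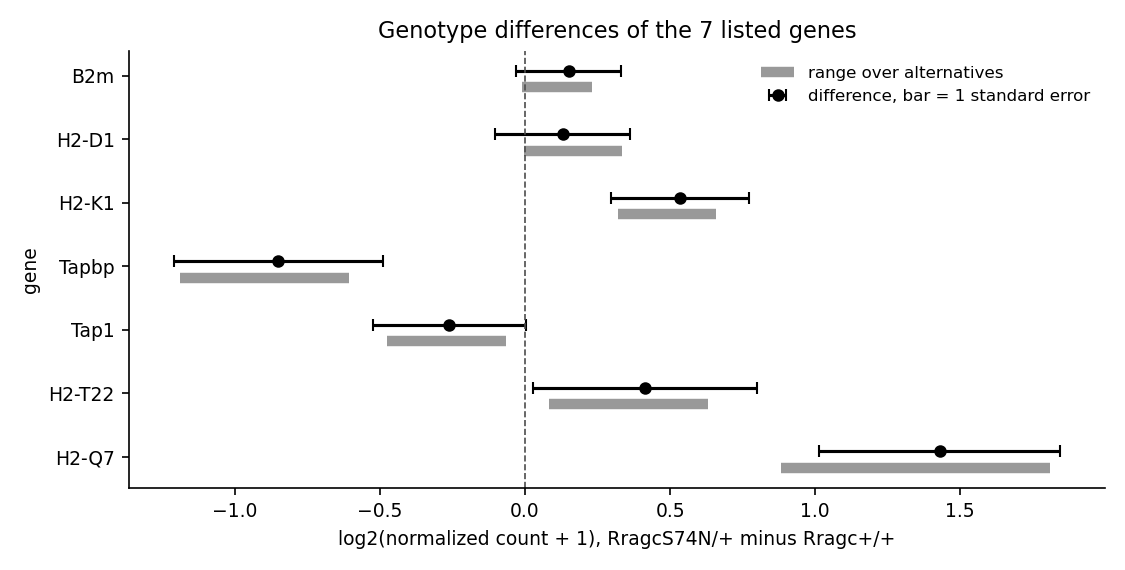
Difference between genotypes on the log2(normalized count + 1) scale for the 7 listed genes (black points, bars of 1 standard error), with the range over up to 20 alternative settings below each (grey). H2-Q7 is at 1.43 and Tapbp at -0.85, while the grey ranges of H2-D1 and B2m reach just below 0.

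The spread between mice of a genotype is given beside the counting error of the reads, which takes each read as a separate molecule. For H2-K1, H2-D1 and Tapbp the within-genotype coefficient of variation was 22.2%, 30.0% and 45.1%, and the counting error was 4.48%, 2.32% and 5.86%. For B2m it was 17.7% against 1.64%, and for Tap1 37.1% against 7.26%. H2-Q7 and H2-T22, at 60.4% and 42.7%, had the largest counting error, 22.5% and 16.2%. H2-Q7, H2-T22 and Tapbp had within-genotype SDs of 0.72, 0.72 and 0.70 on the log2 scale, roughly double the median of all genes, 0.36, while those of H2-D1 and H2-K1 were 0.40 and 0.41.

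Among the libraries, 1 stood apart for these genes. Rragc+/+ replicate 2 had the fewest reads and the lowest quality weight, 0.416, in the weighted limma fit. On the log2 scale its deviation from the mean of the 9 libraries was -1.09 for H2-K1, -0.59 for H2-D1, -1.51 for H2-T22 and -1.05 for H2-Q7. It lay above that mean by 0.90 for Tap1 and 1.22 for Tapbp, and its deviation of -0.14 for B2m was small. In this mouse the 4 heavy chains of the set were thus low where Tap1 and Tapbp were high. Class I and loading genes outside the set did not all follow this. H2-K2, at 9.35 normalized counts, was low there too, the lowest of all libraries. H2-Q10, H2-T24 and H2-Q2, at 342, 44.4 and 11.7, were the second highest, the highest and the highest of the controls. Tap2, at 2.34, was the lowest of all libraries. H2-K2, H2-Q2 and Tap2 rested on 8, 10 and 2 reads in that library. Rragc+/+ replicate 5 and RragcS74N/+ replicate 4 were the libraries with low Tapbp, at -0.98 and -1.20.

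**Figure D4:**
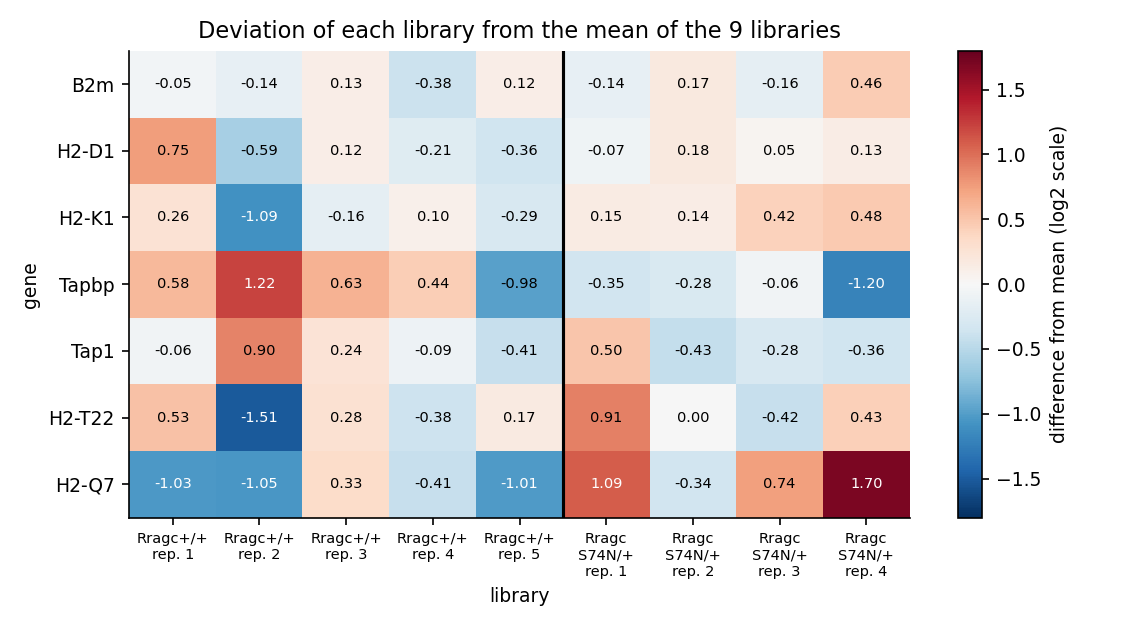
Deviation of each library from the mean of the 9 libraries for the 7 listed genes, on the log2(normalized count + 1) scale (red above, blue below), with Rragc+/+ libraries left of the black line. Rragc+/+ replicate 2 is low for all 4 heavy chains (-1.51 to -0.59) and high for Tapbp (1.22) and Tap1 (0.90).

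Across the 9 libraries, 11 of the 21 pairs of members had a positive Pearson correlation, and 0 of 21 passed an adjusted p of 0.05 in exact permutation tests, which were added after the data had been seen. H2-K1 and H2-D1 had r = 0.69 (exact permutation p = 0.0563, adjusted p = 0.256) and Spearman's rho = 0.67 (exact permutation p = 0.0589, adjusted p = 0.466). Without the libraries farthest from the median of H2-K1, Rragc+/+ replicates 2 and 5, r was 0.16. The relation was thus weak in the other libraries, though removal of extremes narrows the range of H2-K1 and tends to lower r. Tap1 and Tapbp had r = 0.68 (exact permutation p = 0.0445, adjusted p = 0.256) and rho = 0.65 (exact permutation p = 0.0666, adjusted p = 0.466), and r was 0.81 without Rragc+/+ replicate 2 and RragcS74N/+ replicate 1. H2-K1 and Tap1 had r = -0.69 (exact permutation p = 0.0429, adjusted p = 0.256) but rho = -0.28 (exact permutation p = 0.463, adjusted p = 0.572), and r was -0.56 without Rragc+/+ replicates 2 and 5. With genotype means removed, the 3 values of r were 0.73, 0.65 and -0.66, and 0 of 21 pairs had an unadjusted exact permutation p under 0.05.

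Genes outside the set were ranked by their likeness to H2-Q7 over the 9 libraries after removal of genotype means. Of 3470 genes with a mean of at least 50, the closest were Cnot1 (r = 0.84), Ifit1 (r = 0.83), Ifit3b (r = 0.81), Zrsr2 (r = 0.78) and Epc2 (r = 0.77). Ifit1 and Ifit3b are interferon-induced antiviral genes. These values are the highest of many and are a description over libraries that share depth and composition.

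Cnot1, a scaffold of the complex that deadenylates mRNA, measured 65.9, 84.1, 103, 100.5 and 96.2 normalized counts in Rragc+/+ and 115, 79.3, 111 and 140.0 in RragcS74N/+. Ifit1 measured 82.3, 85.3, 100.3, 89.2 and 100.3 normalized counts in Rragc+/+ and 149, 66.1, 121 and 221 in RragcS74N/+. The 3 RragcS74N/+ libraries with high H2-Q7, replicates 1, 3 and 4, were also those with the most Cnot1 and the most Ifit1, in the same order. Both genes were picked for their likeness to H2-Q7, so the shared order follows in part from that choice. Its cause was not tested. RragcS74N/+ replicate 2 had the least Ifit1 of all. Ifit3b measured 52.7, 94.7, 106, 78.0 and 67.2 in Rragc+/+ and 86.2, 57.9, 80.6 and 113 in RragcS74N/+, where the same order held but the genotypes were intermingled.

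**Figure D5:**
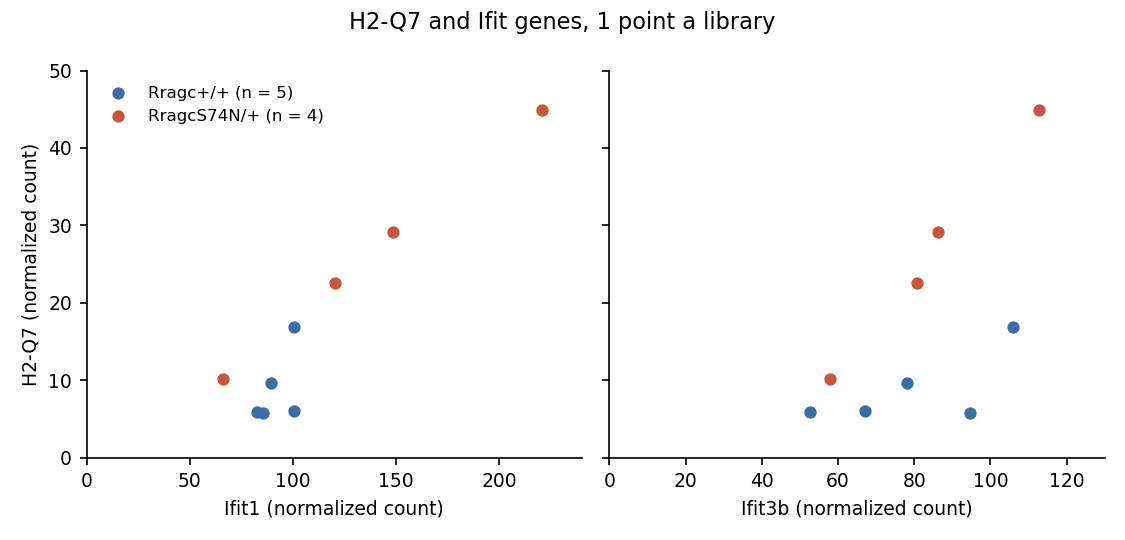
Normalized counts of H2-Q7 against those of Ifit1 (left) and Ifit3b (right), with 1 point per Rragc+/+ (blue, n = 5) or RragcS74N/+ library (red, n = 4). RragcS74N/+ replicate 4 is at the top right of both, with 44.9 for H2-Q7, 221 for Ifit1 and 113 for Ifit3b.

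For the mean of H2-K1 and H2-D1, the closest genes were Fbxl12, Srsf5, Unc93b1, Ubald2 and Fermt3, with r from 0.96 down to 0.95. Srsf5 encodes a splicing factor, Unc93b1 a carrier of nucleic acid-sensing Toll-like receptors and Fermt3 the integrin activator kindlin-3. Whether the low values of Rragc+/+ replicate 2 carry these correlations was not tested.

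Of 25 other genes of peptide supply and loading, 23 were listed and tested. In limma 0 of 23 passed an adjusted p of 0.05, 12 were higher and 11 lower, and the median log2 difference was 0.085. Psme2, a subunit of the interferon-inducible proteasome activator PA28, was the 1 gene of the 23 with an unadjusted p under 0.05, against 5.81% of all genes tested, and was named after its values were seen. Its means in normalized counts were 51.9 ± 23.4 (SD, n = 5) in Rragc+/+ neutrophils and 85.9 ± 19.6 (SD, n = 4) in those of RragcS74N/+ mice, with a log2 difference of 0.86 (SE 0.36, limma adjusted p = 0.713), and Rragc+/+ replicate 2 was the lowest of all at 16.4. Psme1, its partner, differed by -0.28 (SE 0.23).

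The proteasome subunits of the immune type did not pass either. Psmb8 measured 97.2 ± 21.2 (SD, n = 5) in Rragc+/+ neutrophils and 94.7 ± 15.2 (SD, n = 4) in those of RragcS74N/+ mice, and Psmb9 107 ± 49.1 and 113 ± 23.4. The members of the list with the highest level were Sec61b and Sec61g, subunits of the channel into the endoplasmic reticulum, and Hspa5, its abundant chaperone, with log2 differences of 0.26 (SE 0.24), 0.36 (SE 0.26) and -0.08 (SE 0.18). Tpp2, a cytosolic peptidase, was the 1 gene of the 23 whose genotypes did not overlap, as was the case for 1.69% of all genes tested. It measured 40.8, 28.0, 44.1, 40.2 and 45.1 in Rragc+/+ and 51.1, 49.8, 50.5 and 52.3 in RragcS74N/+, a log2 difference of 0.37 (SE 0.19, limma adjusted p = 0.713).

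Among regulators of class I transcription and of interferon signalling no gene passed either threshold. Of 24 genes 19 were listed and 18 tested, with 0 past an adjusted p of 0.05, 0 with an unadjusted p under 0.05 in limma, 10 higher and 8 lower, and a median log2 difference of 0.0073. Jak1, a kinase of interferon receptors, measured 695 ± 150 (SD, n = 5) in Rragc+/+ neutrophils and 647 ± 170 (SD, n = 4) in those of RragcS74N/+ mice. Irf9, part of the transcription complex that answers type I interferon, measured 395 ± 76.9 and 388 ± 82.9. Irf1, which binds the interferon-response elements of class I promoters, measured 355 ± 85.7 and 350 ± 28.9, and their log2 differences were -0.11 (SE 0.21), -0.03 (SE 0.19) and 0.01 (SE 0.19).

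Of 12 receptors for class I and their relatives, 5 were listed, and 0 passed an adjusted p of 0.05 or an unadjusted p under 0.05 in limma. All 5 were higher in RragcS74N/+ and 0 lower, with a median log2 difference of 0.15, and 53.4% of all genes tested were higher. Lilr4b, a receptor of the gp49 family of myeloid cells, measured 828 ± 46.6 (SD, n = 5) in Rragc+/+ neutrophils and 939 ± 199 (SD, n = 4) in those of RragcS74N/+ mice. Pirb, an inhibitory receptor that binds class I molecules, measured 437 ± 42.6 and 461 ± 39.8, and Klra2, of the Ly49 family, 293 ± 88.8 and 377 ± 108. Of 27 other class I and class I-like genes, 3 were listed. H2-K2, a class I gene not among the 27, also had values, from 9.35 to 34.6 normalized counts. H2-Q10, a secreted class I molecule best known from liver, measured 305 ± 49.8 and 279 ± 31.3, H2-T24 measured 33.7 ± 9.29 and 36.4 ± 12.8, and H2-Q2 measured 8.08 ± 2.83 and 5.51 ± 2.34, below the minimum for testing. In H2-T24, 0% of windows of 50 bases occurred in another gene, and in H2-Q10 0.444%.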

How the data were processed

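Polyadenylated RNA of sorted neutrophils was profiled with a 3′-end kit that includes unique molecular identifiers. Alignment to GRCm39 used TopHat2 and Bowtie with multiple hits allowed, and HTSeq (version 0.6.1) counted by strand. The authors deposited a table of read signal divided by a size factor per library. Whether identifiers were collapsed is not given in the sources used here. Whole reads were recovered from the steps of each column (tolerance 0.05). The number of columns that matched no sample was 0. No pair of libraries of the same genotype was a duplicate, since each of these 16 pairs had a chi-square of 5.47 or more per degree of freedom. Pairs across genotypes were not compared. The study describes more RragcS74N/+ mice than the 4 libraries analysed here, and p-values measure the spread between these libraries.

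On the scale log2(value + 1), limma (version 3.58.1, R 4.3.3, trended moderation, Benjamini-Hochberg adjustment) was run with genotype as the only term, on genes whose mean reached 10. edgeR (4.0.16) and DESeq2 (1.42.0, no adjusted p for 8 genes) on the recovered reads were alternatives. The fit was tested on simulated data. Shared 3′ ends and gene overlaps came from GENCODE M21 (GRCm38), not the authors' build. The members and the lists were chosen with earlier results of these data known. Named with values were all listed members and the 5 genes most like H2-Q7 or the mean of H2-K1 and H2-D1. From each list other than the cell type markers, the 3 genes of highest level and any gene without overlap between genotypes were also named. Other names were chosen after their values were seen.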

Additional observations from a re-analysis of the deposited data

Results flagged for a closer look

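The members, their ratios, the summed lists and the other genes named with values gave 106 groups of 4 or 5 libraries, of which 7 held a library apart from the others by Dixon's test, and chance at 1 in 20 gives 5.3. Tap1 in RragcS74N/+ replicate 1 was 221 normalized counts where the other RragcS74N/+ libraries lay between 116 and 128, a gap of 0.884 of the range. Lilr4b in RragcS74N/+ replicate 3 was 640.2 where the others lay between 1030 and 1045, a gap of 0.962. Tpp2 in Rragc+/+ replicate 2 was 28.0 where the others lay between 40.2 and 45.1, a gap of 0.712. The summed eosinophil and basophil markers in Rragc+/+ replicate 5 were 136 where the others lay between 52.5 and 67.5, a gap of 0.821, and Prg2, a gene of that list, was 80.2 there against 11.2 to 23.3, a gap of 0.825. Tap2 in Rragc+/+ replicate 1 was 65.9 where the others lay between 2.34 and 18.0, a gap of 0.753. H2-K2 in Rragc+/+ replicate 2 was 9.35 where the others lay between 22.4 and 26.2, a gap of 0.772.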

How the results depend on the processing

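In all 20 alternatives 0 genes passed an adjusted p of 0.05 in limma, edgeR or DESeq2. The 388 genes with an unadjusted p under 0.05 became 191 with a minimum mean of 50, where fewer genes were tested, 769 with quality weights and 255 with the trend on GC content removed, for which the cause was not tested. Leaving out 1 library gave 201 (without Rragc+/+ replicate 2) to 907 (without Rragc+/+ replicate 5). Of the 7 members, 5 kept their direction in every alternative that gave them a value. The exceptions were H2-D1 without Rragc+/+ replicate 2 and B2m with the GC trend removed. All 138 values moved by less than 1 within-genotype SD. H2-Q7 and H2-T22 had no value with a minimum mean of 50. The filters on low values and limma without the trend cannot change a difference, so agreement there is no support. The order of levels had 4 of 6 pairs past the threshold, and 4 to 5 without 1 library. The 4 include H2-T22 over H2-Q7, a pair not free of the genotype difference that helped to choose the set. Pairs of members with an unadjusted exact permutation p under 0.05 went from 2 to 0 with genotype means removed. No paired analysis was possible because no number in the labels links mice of one genotype to the other. H2-Q6 has no value here, so its sum with H2-Q7 was not run. Depth limits H2-Q7 and H2-T22 most, with as few as 5 and 8 reads in a library.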

Other observations

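Tap2, the partner of Tap1 in the transporter, did not follow it across libraries. Its normalized counts were 65.9, 2.34, 13.1, 4.02 and 18.1 in Rragc+/+ and 11.9, 20.3, 12.8 and 17.8 in RragcS74N/+. Rragc+/+ replicate 2, the control with the most Tap1 (292), had the least Tap2, and Rragc+/+ replicate 1 had the most. Psmb9, next to Tap1 on the opposite strand, was also lowest in Rragc+/+ replicate 2, at 42.1 against 78.8 to 172 in the other controls, while Psmb8 in that library, 117, was the highest of the controls. H2-K2, a class I gene outside the set, was 9.35 in Rragc+/+ replicate 2 and 15.9 to 34.6 in the other 8 libraries, but 3 other class I genes were not low there, H2-Q10 at 342, H2-T24 at 44.4 and H2-Q2 at 11.7. These genes were chosen after their values were seen.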
